A study of Mus musculus with 4 samples.

Results

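The genes described here are the hnRNP and SR splicing factor genes of the mouse. From the GENCODE annotation (version M1, genome build mm9), the protein-coding genes on chromosomes 1 to 19 were taken whose symbol begins with Hnrnp, or with Srsf followed by a number. The rule gave 28 genes, 17 hnRNP genes and 11 SR genes, of 21410 protein-coding genes on these chromosomes. Hnrnph2 lies on chromosome X and was therefore not included, and Hnrpdl, Hnrpll and Sfrs18 carry older symbols in this annotation and were not matched. The rule used no measured value.

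The study mapped acetylated histone H3 in untreated mouse embryonic stem (mES) cells by ChIP-seq. Chromatin was immunoprecipitated with a rabbit polyclonal antibody against H3K9ac (ab4441), or with either of the H3K14ac antibodies 13HH3-1A5 (a mouse monoclonal) and 7G8, and input DNA was sequenced as the control library. The labels name the line E14 of strain 129P2/OlaHsd at passage 25-30, whereas the methods describe wild type cells derived from blastocysts, grown on feeder cells and then passaged without feeders. Each antibody has 1 library, so the values below have no replicate error and no test between libraries was possible. Intervals of single genes cover counting error only. Those of medians come from the spread between members within 1 library and measure neither counting error nor variation between cultures.

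The libraries held between 19313927 (input) and 23839094 (7G8) tags, where a tag is a mapped read of 36 bases. Of the 10 ES cell markers checked, 9 were 2-fold or more over input for H3K9ac within 3 kb of the TSS, where 50.6% of all genes were, with Zfp42 highest at a log2 ratio of 3.95. Esrrb, with 0.75, was the marker that did not. None of the 8 fibroblast feeder markers reached 2-fold, and the highest of them was Col1a1 with 0.94. Of the 5 primitive endoderm markers, 4 reached 2-fold in H3K9ac, with Gata6 highest at 1.75, and of the 6 neuron markers 2 did, with Neurod1 highest at 1.19. With so few genes in each list, these counts stand beside the share of all genes as a description only. The part of other cell types in the values below was not tested.

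hnRNP proteins coat nascent RNA as it leaves the polymerase. SR proteins bind exonic sequences through RNA recognition motifs and recruit the spliceosome through a domain rich in arginine and serine, and many hnRNP proteins oppose them at the same splice sites. Most of the genes are expressed in nearly all cells, and many of them control their own levels through exons that send the transcript to decay. The authors attribute H3K9ac mainly to the acetyltransferases GCN5/PCAF and/or Tip60, and H3K14ac to GCN5/PCAF, p300/CBP and/or Myst3. They report both marks around the TSSs of active genes and also at bivalent promoters and active enhancers. For H3K14ac they also describe some inactive promoters.

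Sequences upstream of the TSS are shown for the members on which the results turn, because promoters of this set share GC-rich sequence and, in some, further elements. They were read from mm9, 5′ to 3′ on the strand of the gene, and each ends at the base before the TSS. Hnrnpa1 and Hnrnpa2b1 are shown because their H3K9ac ratios come next after that of Hnrnpa3 and because they share a divergent arrangement with a gene for a heterochromatin protein. Srsf3, Srsf2 and Hnrnpab are shown for a TATA box close to the TSS, and Srsf7 for the highest input count. Capitals mark a GC box, a CCAAT box, a TATA box or an NRF1 motif on either strand, with the letters spelled out beside the counts. Only those exact letters were searched, so variants, such as tatataa in Srsf7, stay in lower case and are not counted.
Hnrnpa1, chr15:103070795-103070944, plus strand: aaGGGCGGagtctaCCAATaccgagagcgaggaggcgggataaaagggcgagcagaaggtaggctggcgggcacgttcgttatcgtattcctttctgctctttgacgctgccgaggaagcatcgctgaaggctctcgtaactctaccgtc
Hnrnpa2b1, chr6:51419894-51420043, minus strand: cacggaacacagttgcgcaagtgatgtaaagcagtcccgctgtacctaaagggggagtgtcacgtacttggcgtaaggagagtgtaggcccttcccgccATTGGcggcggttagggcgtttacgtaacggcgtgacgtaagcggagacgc
Srsf3, chr17:29169468-29169617, plus strand: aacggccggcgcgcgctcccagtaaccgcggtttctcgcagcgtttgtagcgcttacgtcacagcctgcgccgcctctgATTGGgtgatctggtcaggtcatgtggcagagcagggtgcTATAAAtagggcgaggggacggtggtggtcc
Srsf2, chr11:116714409-116714558, minus strand: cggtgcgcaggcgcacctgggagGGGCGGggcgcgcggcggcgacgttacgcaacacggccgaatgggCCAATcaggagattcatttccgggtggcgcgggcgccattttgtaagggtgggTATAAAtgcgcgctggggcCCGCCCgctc
Hnrnpab, chr11:51420350-51420499, minus strand: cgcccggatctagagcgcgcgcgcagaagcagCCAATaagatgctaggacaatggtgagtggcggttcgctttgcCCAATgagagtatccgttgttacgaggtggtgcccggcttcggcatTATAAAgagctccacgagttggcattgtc
Srsf7, chr17:80606630-80606779, minus strand: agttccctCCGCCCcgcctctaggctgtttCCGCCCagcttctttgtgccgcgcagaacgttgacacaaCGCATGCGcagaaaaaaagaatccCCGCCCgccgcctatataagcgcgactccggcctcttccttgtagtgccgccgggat

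In these sequences the TATA box began 31 bases before the TSS of Srsf3 and 29 bases before the TSSs of Srsf2 and Hnrnpab. The CCAAT box nearest to the TSS began 51 bases before it in Hnrnpa2b1, 71 in Srsf3, 82 in Srsf2, 75 in Hnrnpab and 136 in Hnrnpa1. In 250 bases upstream, searched on both strands, a GC box with the letters GGGCGG was found in 20 of 28 members (71.4%), against 41.1% of all genes and 68.3% of genes with a CpG island-like TSS. The letters of the CCAAT box were found in 16 members (57.1%), against 34.7% of all genes and 35.0% of the island-like genes. A TATA box with the letters TATAAA was found in 4 members, Srsf2, Srsf3, Hnrnpab and Hnrnpm (14.3%), against 12.4% of all genes and 4.82% of the island-like genes. The ETS motif CCGGAAG was in 6 members (21.4%, all genes 8.57%, island-like genes 14.7%), TCGCGA in 3 (10.7%, all genes 2.66%, island-like 5.12%), the NRF1 motif CGCATGCG in 2 (7.14%, all genes 1.89%, island-like 3.51%) and the YY1 motif AAGATGG in 1 (3.57%, all genes 4.42%, island-like 4.22%). Motifs can overlap, as neighbouring GC boxes do in Hnrnpu, and a match describes letters and not a bound site. Island-like means that the sequence 500 bp either side of the TSS had at least 50% GC and that its CpGs numbered at least 0.6 of those expected from its C and G content. By this measure 26 of the 28 members were island-like (92.9%), against 45.6% of all genes, with a median of 98 CpGs against 42. The exceptions were Srsf12 and Hnrnpa1, the latter because of a GC content of 49.0%.

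All 28 members were 2-fold or more over input for H3K9ac within 3 kb of the TSS, where 50.6% of all genes were. With a pseudocount of 5 in place of 1 the count was 27. For H3K14ac, 20 of 28 reached 2-fold with 13HH3-1A5 (all genes 9.56%) and 20 with 7G8 (all genes 9.33%). Their median log2 ratio over input came to 3.16 in H3K9ac (95% interval of the median over members 2.81 to 3.62), 1.5 with 13HH3-1A5 (1.15 to 1.85) and 1.26 with 7G8 (1.01 to 1.61). The medians over all genes were 1.02, 0.25 and 0.24, and those over genes with an island-like TSS were 1.77, 0.48 and 0.45. At 4-fold or more over input, 25 members passed in H3K9ac (all genes 20.6%), 5 with 13HH3-1A5 (all genes 0.406%) and 2 with 7G8 (all genes 0.22%). The H3K14ac counts at 2-fold varied with the setting. With a pseudocount of 5 they were 20 with 13HH3-1A5 and 17 with 7G8. A window of 1 kb gave 23 and 21, and one of 2 kb 22 and 24. Shares of all genes were not computed for these settings.

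**Figure D1:**
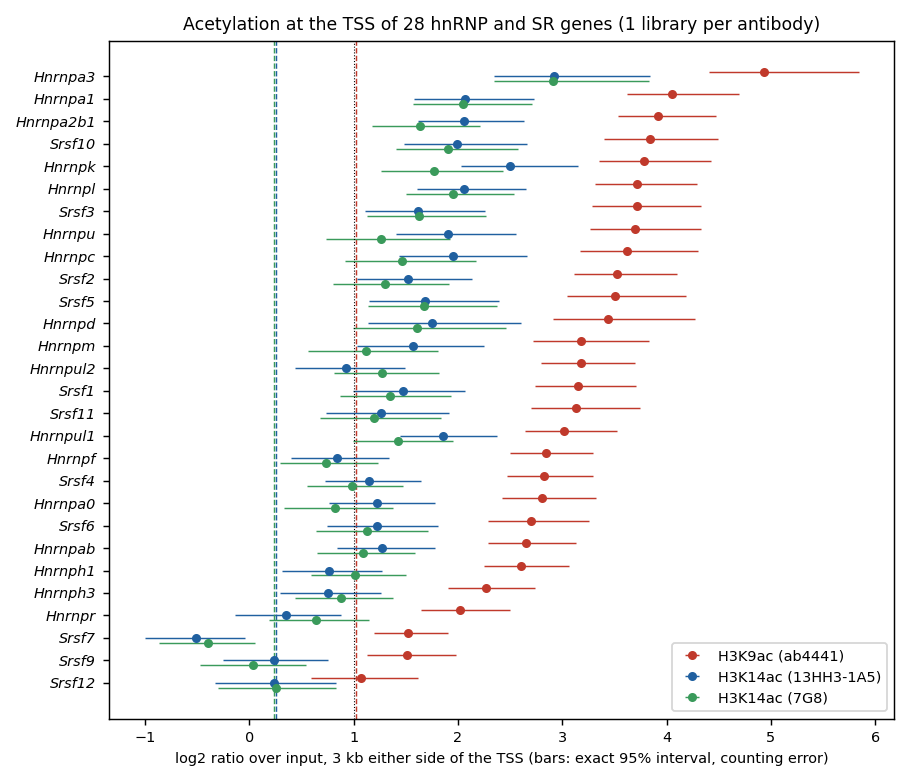
Log2 ratio over input in the window of 3 kb either side of the TSS (x axis) for each of the 28 members (y axis, ordered by H3K9ac), with 1 point per antibody and bars for the exact 95% interval of counting error. Dashed lines are the medians of all 21410 genes in the same colours and the dotted line is the 2-fold threshold. All H3K9ac points are to the right of the H3K14ac points of the same gene, and Srsf7, Srsf9 and Srsf12 stand at the bottom.

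Of the 28 members, 12 were among the top 1% of all genes by H3K9ac ratio, 20 among the top 5% and 23 among the top 10%. By the ratio of 13HH3-1A5, 9 were in the top 1% and 17 in the top 5%, and by 7G8 6 and 15. The members had fewer input tags than other genes, with a median of 40.5 in the window against 53, and 20 of 28 lay below the median of all genes. Ranked by tags alone, without input, 10 members were in the top 1% and 20 in the top 5% for H3K9ac, but 4 and 10 for 13HH3-1A5. The place of the members for H3K14ac was thus lower without the division by input, while that for H3K9ac was nearly the same. How reads with several mapping places were treated is not given in the sources used here, and its part in the input counts was not tested.

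The A/B and D hnRNPs, several of which repress exons, had the highest median log2 ratio of the families in H3K9ac, 3.68 over 6 genes. In 13HH3-1A5 their median was 1.90, just below the 1.95 of the other hnRNP genes outside the F/H and U groups. All 6 reached 2-fold for 13HH3-1A5. Hnrnpa3 (TSS at 75497318 on chromosome 2) had 730 tags of H3K9ac, 167 of 13HH3-1A5, 183 of 7G8 and 18 of input. Its log2 ratios were 4.94 (exact 95% interval 4.41 to 5.84), 2.92 (2.35 to 3.84) and 2.91 (2.34 to 3.83), and that of H3K9ac was the highest of all 21410 genes. By H3K9ac tags alone Hnrnpa3 ranked 30, and its input was among the lowest of all genes (percentile 4.93). Over the whole gene, input had 5 tags in 5396 bp of exons and 19 in 4751 bp of introns, and the cause of this was not tested.

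Hnrnpa1 (TSS at 103070945 on chromosome 15), which promotes exon skipping, had 674 tags of H3K9ac, 157 of 13HH3-1A5, 171 of 7G8 and 32 of input. The ratios were 4.05 (3.62 to 4.69), 2.07 (1.58 to 2.73) and 2.05 (1.56 to 2.71). Hnrnpa2b1 (TSS at 51419893 on chromosome 6), whose proteins also take part in mRNA transport, had 778 tags of H3K9ac, 198 of 13HH3-1A5, 162 of 7G8 and 41 of input. Its ratios were 3.92 (3.53 to 4.47), 2.06 (1.62 to 2.63) and 1.63 (1.18 to 2.21). Hnrnpa2b1 thus had the most H3K9ac tags of the 3 genes, and by tags alone it ranked 18 of all genes, whereas by ratio it ranked 26. The intervals of Hnrnpa1 and Hnrnpa2b1 overlap in each library. The lowest of this family in H3K9ac was Hnrnpab with 2.65, and Hnrnpa0, an intronless gene, had 2.81.

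Both Hnrnpa1 and Hnrnpa2b1 lie head to head with a gene for a protein of the HP1 group, which binds methylated H3K9. An annotated start of Cbx5 is 698 bp upstream of Hnrnpa1 and one of Cbx3 is 466 bp upstream of Hnrnpa2b1, on the opposite strand. The windows of the members thus also cover these starts. In all, 9 of 28 members (32.1%) had an annotated start of another protein-coding gene on the opposite strand within 1000 bp upstream, against 8.79% of all genes. The other pairs were Srsf11 with Lrrc40 (23 bp), Hnrnpul2 with Ttc9c (68 bp), Hnrnpk with Rmi1 (84 bp), Hnrnpd with 4930524J08Rik (123 bp), Srsf7 with Ttc39d (171 bp), Hnrnph3 with Pbld2 (421 bp) and Srsf2 with Mfsd11 (726 bp). A nearer annotated start of Mfsd11 lies 582 bp downstream of the Srsf2 TSS, also on the opposite strand. The 9 divergent members had a median H3K9ac log2 ratio of 3.44 and the other 19 of 3.02, and the medians for 13HH3-1A5 were 1.52 and 1.47. Over all genes the corresponding medians were 2.14 and 0.88 for H3K9ac and 0.50 and 0.23 for 13HH3-1A5. The gap between divergent and other genes was therefore smaller among the members than over all genes. All 28 members were at 2-fold or more for H3K9ac, against 50.6% of all genes, so these gaps are not directly comparable.

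The F/H hnRNPs, which bind runs of guanines, were the family with the lowest medians, 2.61 for H3K9ac and 0.77 for 13HH3-1A5 over 3 genes, and none of them reached 2-fold for 13HH3-1A5. Hnrnpf (TSS at 117856800 on chromosome 6) had the highest H3K9ac ratio of them, with 523 tags of H3K9ac, 120 of 13HH3-1A5, 123 of 7G8 and 59 of input. Its log2 ratios were 2.84 (2.49 to 3.30), 0.84 (0.40 to 1.34) and 0.74 (0.30 to 1.23). Its H3K9ac tags were close to those of Hnrnpu and Srsf2, while its input was higher. The 3 genes had input counts of 57 to 59, against the median of 40.5 over the members.

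In the U hnRNPs, large proteins that bind both RNA and chromatin, the medians were 3.17 for H3K9ac and 1.85 for 13HH3-1A5 over 3 genes. Hnrnpu (TSS at 180267928 on chromosome 1), the scaffold attachment factor, had the highest H3K9ac ratio, with 542 tags of H3K9ac, 144 of 13HH3-1A5, 101 of 7G8 and 33 of input, and log2 ratios of 3.70, 1.90 and 1.26. Hnrnpul1 (TSS at 26539749 on chromosome 7) had 493 tags of H3K9ac, 204 of 13HH3-1A5, 166 of 7G8 and 49 of input, and ratios of 3.02, 1.85 and 1.42. Hnrnpul2 (TSS at 8893891 on chromosome 19) had 517 tags of H3K9ac, 100 of 13HH3-1A5, 140 of 7G8 and 46 of input, and ratios of 3.17, 0.93 and 1.27. The pair Hnrnpul1 and Hnrnpul2 thus had nearly equal H3K9ac but differed in 13HH3-1A5, where their intervals barely overlap (1.44 to 2.38 and 0.44 to 1.49), more than in 7G8 (0.99 to 1.95 and 0.81 to 1.82).

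Among the other hnRNP genes, Hnrnpk (TSS at 58503874 on chromosome 13), which binds poly(C), had the highest H3K9ac ratio, with 559 tags of H3K9ac, 212 of 13HH3-1A5, 140 of 7G8 and 32 of input. Its log2 ratios were 3.78 (3.35 to 4.43), 2.49 (2.02 to 3.15) and 1.77 (1.26 to 2.43), and 13HH3-1A5 exceeded 7G8 by 0.73 (0.42 to 1.06), the largest such gap among the members. Hnrnpl, which binds CA repeats, had 3.72 for H3K9ac, Hnrnpc, which binds runs of uridines, 3.62, and Hnrnpm 3.18. Hnrnpr (TSS at 135866883 on chromosome 4), a partner of the SMN protein, had the lowest H3K9ac ratio of the hnRNP genes, with 285 tags of H3K9ac, 82 of 13HH3-1A5, 111 of 7G8 and 57 of input, and ratios of 2.02, 0.35 and 0.64. The interval for 13HH3-1A5 at Hnrnpr included 0 (-0.14 to 0.88), and that for 7G8 did not (0.18 to 1.14).

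The SR genes had a median log2 ratio of 3.13 for H3K9ac, next to 3.18 for the hnRNP genes, and of 1.26 for 13HH3-1A5, next to 1.75. Srsf10 (TSS at 135411662 on chromosome 4), a repressor of splicing when dephosphorylated, had the highest H3K9ac ratio of them, with 563 tags of H3K9ac, 144 of 13HH3-1A5, 150 of 7G8 and 31 of input. Its ratios were 3.84 (3.4 to 4.49), 1.99 (1.48 to 2.66) and 1.91 (1.41 to 2.58). Srsf3 (TSS at 29169618 on chromosome 17), the smallest SR protein, had 564 tags of H3K9ac, 121 of 13HH3-1A5, 134 of 7G8 and 34 of input, and ratios of 3.71, 1.61 and 1.62. Srsf10 and Srsf3 could not be told apart in H3K9ac, with 563 and 564 tags. Srsf2, which acts at exonic enhancers, had 3.52, Srsf5 3.5, Srsf1, the factor also known as ASF/SF2, 3.15, Srsf11 3.13, Srsf4 2.83 and Srsf6 2.70 in H3K9ac.

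The 3 lowest H3K9ac ratios of the whole set were those of SR genes. Srsf7 (TSS at 80606629 on chromosome 17), a shuttling factor with a zinc knuckle, had 301 tags of H3K9ac, 67 of 13HH3-1A5, 80 of 7G8 and 86 of input. Its log2 ratios were 1.52 (1.19 to 1.91), -0.51 (-1.01 to -0.05) and -0.40 (-0.87 to 0.05). The H3K9ac tags of Srsf7 exceeded those of Hnrnpr and Hnrnpd, but its input was the highest of the members (percentile 90.5 of all genes). Srsf9 (TSS at 115777186 on chromosome 5) had 213 tags of H3K9ac, 81 of 13HH3-1A5, 77 of 7G8 and 61 of input, and ratios of 1.51, 0.24 and 0.03. Srsf12 (TSS at 33295966 on chromosome 4), a factor that opposes other SR proteins, had 118 tags of H3K9ac, 61 of 13HH3-1A5, 68 of 7G8 and 46 of input, and ratios of 1.06 (0.59 to 1.62), 0.23 (-0.33 to 0.83) and 0.25 (-0.30 to 0.83). Srsf12 was the member with the fewest H3K9ac tags and stood just above the 2-fold threshold, and for both H3K14ac antibodies its interval included 0.

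Across the 28 members Pearson's r between the log2 ratios of H3K9ac and 13HH3-1A5 was 0.93 (Spearman's rho 0.93), between H3K9ac and 7G8 0.94 (0.92) and between the H3K14ac antibodies 0.94 (0.93). Over all 21410 genes r was 0.73, 0.73 and 0.77. These are correlations across genes, and the ratios share their input counts. Among the members the number of CpGs within 500 bp of the TSS was hardly related to H3K9ac (r = 0.05) or 13HH3-1A5 (r = 0.13). Over all genes r was 0.65 and 0.42. The members span 50 to 156 CpGs and 26 of 28 are island-like, whereas all genes have a median of 42 CpGs. The values of r are therefore not directly comparable, and r within island-like genes was not computed.

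In every member the log2 ratio of 13HH3-1A5 was below that of H3K9ac. The ratio of 13HH3-1A5 was also the lower in 75.5% of all genes and in 99.6% of the genes at 2-fold or more for H3K9ac. The median difference was -1.69 (95% interval of the median -1.86 to -1.61), against -0.74 over all genes and -1.36 over the 10829 genes at 2-fold or more for H3K9ac. Those 10829 genes had a median H3K9ac ratio of 1.84, against 3.16 for the members. The difference contains that ratio, so these medians are not matched for level. In the lists described below it was -1.60 for core subunits, -1.51 for hnRNP relatives, -1.43 for SR-like factors and -0.84 for tissue-restricted regulators. Among the members, the lowest differences were those of Hnrnpul2 with -2.25 (-2.59 to -1.96), Srsf3 with -2.10 (-2.42 to -1.83) and Srsf7 with -2.03 (-2.47 to -1.68). The highest were those of Srsf12 with -0.83 (-1.32 to -0.39), Hnrnpul1 with -1.16 (-1.42 to -0.93) and Srsf9 with -1.27 (-1.68 to -0.92). Srsf12 and Srsf9 also had the lowest H3K9ac ratios of the members, 1.06 and 1.51, while Srsf7, with 1.52, was among the lowest differences. Antibodies can differ in efficiency, so the level of the difference is not a ratio of the acetylated histones, while its spread over the members is a comparison within the same libraries. The 2 antibodies against H3K14ac differed from each other by between -0.34 (Hnrnpul2) and 0.73 (Hnrnpk).

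Around the TSS, H3K9ac of the members had 2 maxima, of 6.93 mean tags per 10000000 in 100 bp at 450 bp upstream and of 8.81 at 150 bp downstream, with a minimum of 1.80 at 50 bp upstream. On the same scale of tags, 13HH3-1A5 had 1.65 at 450 bp upstream and 4.08 at 150 bp downstream, whereas 7G8 had 1.83 at 750 bp upstream and 1.69 at 250 bp downstream. At the minimum 50 bp upstream, 13HH3-1A5 had 0.25 and 7G8 0.49. Divided by the input profile, the higher maximum of H3K9ac lay upstream, with 27.2 times input at 150 bp upstream and 16.4 at 1650 bp downstream. For 13HH3-1A5 it stayed downstream, with 5.80 upstream and 7.05 downstream, and for 7G8 it lay upstream, with 7.97 and 4.68. The side of the H3K9ac maximum thus depends on the division by input, which is low in single bins. Of the window's tags, the median share downstream of the TSS was 56.0% in H3K9ac, 61.9% with 13HH3-1A5 and 52.8% with 7G8, against 56.5%, 56.7% and 53.3% over all genes. The downstream side held more 13HH3-1A5 tags in 26 members (92.9%, all genes 67.2%), and the exceptions were Hnrnpa0 with 37.3% and Hnrnpl with 47.1%.

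**Figure D2:**
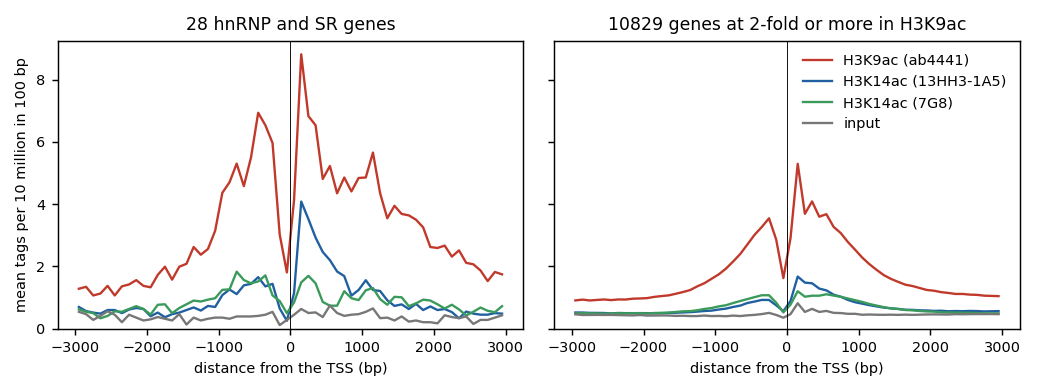
Mean tags per 10000000 in bins of 100 bp (y axis) against the distance from the TSS (x axis) for the 28 members (left) and for the 10829 genes at 2-fold or more for H3K9ac (right), with 1 line per library. The members reach 8.81 for H3K9ac and 4.08 for 13HH3-1A5 at 150 bp downstream, against 5.29 and 1.67 on the right.

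By the median, H3K9ac also covered more of the window in the members than in all genes or in island-like genes. The number of bins at 2-fold or more over the gene's mean input, multiplied by 100 bp, had a median of 4900 bp (4400 to 5400) for H3K9ac, against 2200 bp over all genes and 3300 bp over island-like genes. Of the lists described below, the hnRNP relatives had a median of 4600 bp for H3K9ac and the SR-like factors of 4400 bp. The ES cell markers had 4400 bp. These medians lay within the members' interval of 4400 to 5400 bp, so breadth did not set the members apart from those lists. The core subunits had 3800 bp and the tissue-restricted regulators 2000 bp. For 13HH3-1A5 the members' median was 2450 bp and for 7G8 2550 bp, against 1300 bp for both over all genes. These bins need not be adjacent, so the breadth is not the width of a domain. Bins hold few input tags, and the 8 fibroblast feeder markers, with a median H3K9ac log2 ratio of 0.29, still had a median of 1800 bp. The highest H3K9ac breadths were those of Hnrnpa3 and Hnrnpa2b1 with 5800 bp of the window. The lowest were those of Srsf7 with 2500 bp and Srsf9 with 2800 bp. Of the members, Hnrnpa3 had the lowest input (18 tags) and Srsf7 the highest (86). Breadth followed level closely, with r = 0.89 between the H3K9ac log2 ratio and the breadth, which share the same tags and input.

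**Figure D3:**
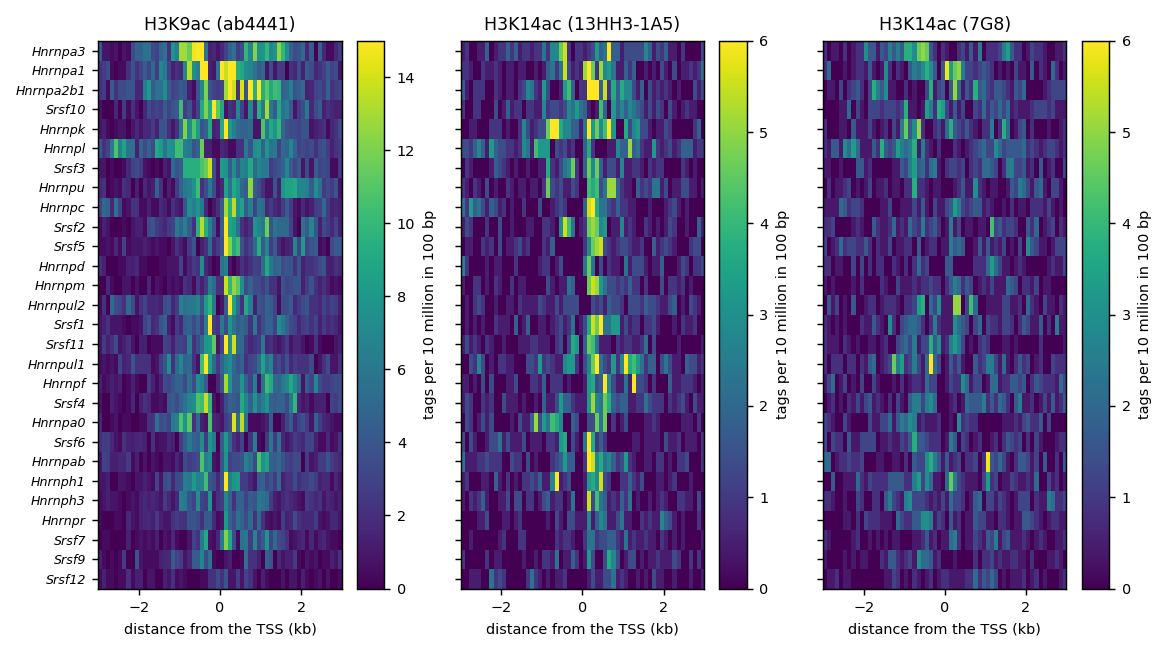
Tags per 10000000 in each 100 bp bin (colour, capped at 15 for H3K9ac and at 6 for H3K14ac) for the 28 members, ordered from the highest to the lowest H3K9ac ratio, against the distance from the TSS (x axis). The 13HH3-1A5 signal is gathered just downstream of the TSS in most rows, and the rows of Hnrnpa3 and Hnrnpl show H3K9ac spread far upstream.

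Inside the genes, from 3 kb after the TSS to the gene end, 25 members had at least 1 kb left. H3K9ac was 2-fold or more over input in 17 of these 25 inner bodies (all genes 13.6%). The median log2 ratio was 1.63 (0.94 to 1.89), against 0.24 over all genes. All 6 inner bodies measured of the ES cell markers passed, with a median of 1.80. In the lists described below, 8 of 13 passed for the hnRNP relatives (median 1.21) and 7 of 18 for the SR-like factors (0.90). For the core subunits 11 of 33 passed (0.75), and for the tissue-restricted regulators 0 of 18 (0.11). Among genes at 2-fold or more for H3K9ac at the TSS, 1995 of 9527 inner bodies passed, with a median of 0.54. The 28 members were shorter, with a median of 11448 bp against 15526 bp for all genes and 21213 bp for those genes. The part of gene length in these values was not tested. For 13HH3-1A5 only Srsf5 passed (all genes 1.4%), and for 7G8 Srsf3, Srsf5 and Hnrnpf did (all genes 0.834%). The medians of the inner bodies were 0.01 for 13HH3-1A5 and -0.04 for 7G8, near those of all genes, 0.01 and -0.11. Inner bodies with high H3K9ac tended to belong to genes with high H3K9ac at the TSS (r = 0.76 across 25 genes). Hnrnpf was an exception, with 2.91 in its inner body but 2.84 at the TSS, below the members' median of 3.16.

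The highest inner bodies in H3K9ac were those of Srsf5, Hnrnpf and Srsf3. In Srsf5 (TSS at 82046491 on chromosome 12), a factor that acts at exonic enhancers, the 2004 bp left held 48 tags of H3K9ac, 21 of 13HH3-1A5, 17 of 7G8 and only 3 of input, a log2 ratio of 3.09 for H3K9ac whose interval ran from 2.10 to 6.06. At its TSS Srsf5 had 419 tags of H3K9ac, 109 of 13HH3-1A5, 119 of 7G8 and 29 of input. In Hnrnpf the 15840 bp left held 865 tags of H3K9ac, 171 of 13HH3-1A5, 244 of 7G8 and 94 of input, a log2 ratio of 2.91 (2.63 to 3.26) for H3K9ac, as high as in its TSS window. In Srsf3 the 7694 bp left held 220, 58, 72 and 27 tags in the same order, and H3K9ac had 2.68 (2.18 to 3.4). The inner bodies without enrichment were those of Srsf7 with -0.05 (-0.53 to 0.44) and Srsf9 with 0.32 (-0.23 to 0.91).

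The 25 members of at least 5 kb were divided into 10 equal parts along the gene. Their median H3K9ac log2 ratio was 3.32 in the first part and 1.0 in the last. Over all genes these medians were 1.24 and 0.07, and over genes at 2-fold or more for H3K9ac 1.98 and 0.27. In 13HH3-1A5 the members' median was 2.06 in the first part, 0.60 in the next and -0.28 in the last. With 7G8 the opening 3 parts differed less, with 1.08, 1.06 and 0.83, and the last part had -0.19. The median of the members in H3K9ac thus stood above input in every part, although single members, among them Srsf7 and Hnrnpr, were at or below input near their end, and the medians of both H3K14ac antibodies were near input over the later parts.

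**Figure D4:**
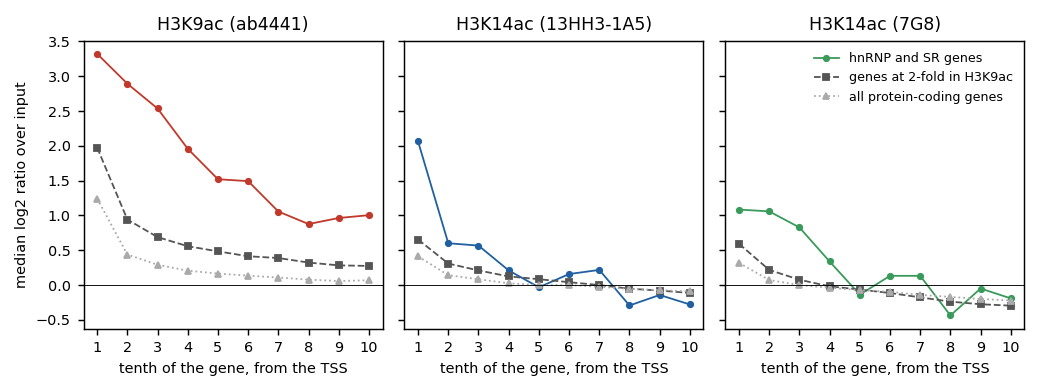
Median log2 ratio over input (y axis) in each of 10 equal parts of the gene from the TSS to the gene end (x axis), for 25 hnRNP and SR genes of at least 5 kb, for genes at 2-fold or more for H3K9ac and for all protein-coding genes, in 1 panel per antibody. The members' H3K9ac is 1.0 in the last part, and their H3K14ac is near 0 from the middle of the gene.

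Several members had acetylation away from the TSS used. In Hnrnpl the annotated start 1372 bp upstream had 166 tags of H3K9ac, 43 of 13HH3-1A5, 47 of 7G8 and 5 of input within 500 bp, against 49, 20, 8 and 7 at the TSS used, so that the upstream start carried the higher signal. In Srsf11 a start 4913 bp downstream had 154 tags of H3K9ac, against 182 at the TSS used. In 13HH3-1A5 the same start had 30 tags against 47, and in input 16 against 6. In Hnrnpf a start 1022 bp downstream had 131 tags of H3K9ac against 108 at the TSS used, but 16 of input against 3, so that its log2 ratio was the lower (2.63 against 4.22). A further H3K9ac maximum of Hnrnpf lay between 10 and 11 kb downstream, with 130 tags of H3K9ac, 37 of 13HH3-1A5, 22 of 7G8 and 7 of input, and the nearest annotated transcript start was 9478 bp from its centre. The maxima more than 3 kb downstream in Srsf11 and Hnrnpf lie within the inner bodies and add to their values.

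**Figure D5:**
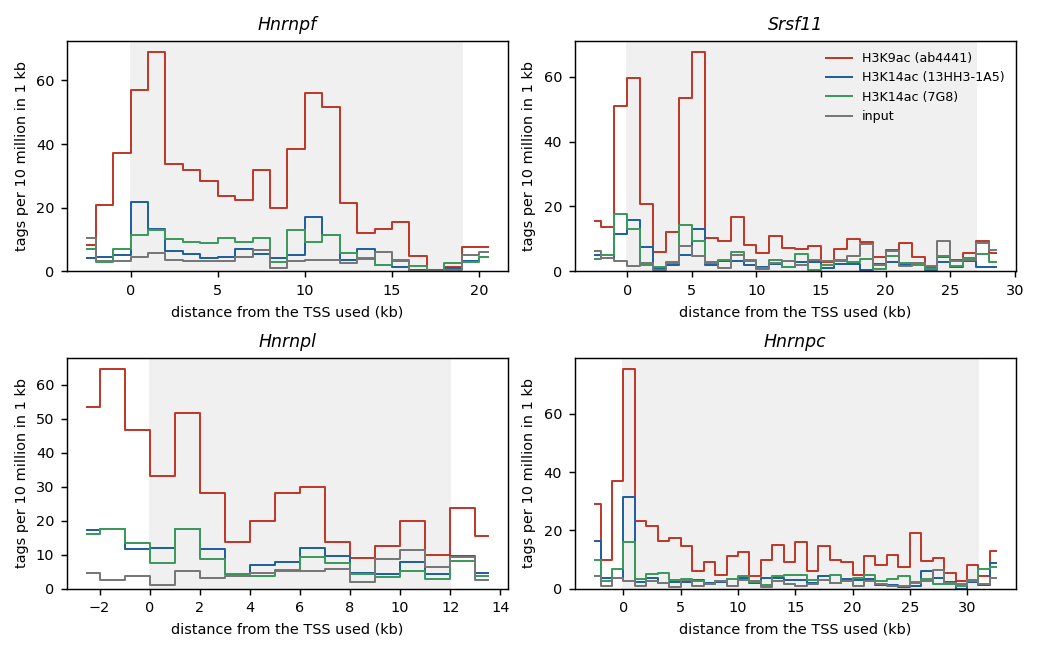
Tags per 10000000 in steps of 1 kb (y axis) against the distance from the TSS used (x axis) for Hnrnpf, Srsf11, Hnrnpl and Hnrnpc, with 1 line per library and the stretch from the TSS used to the gene end shaded. Srsf11 and Hnrnpf have a further H3K9ac maximum inside the gene, Hnrnpl is highest upstream of the TSS used, and H3K9ac of Hnrnpc stays above input over most of the gene.

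Lists of other splicing genes were measured in the same way. The counts at 2-fold stand beside 50.6% of all genes in H3K9ac, 9.56% with 13HH3-1A5 and 9.33% with 7G8. Of 14 relatives of the hnRNPs under other symbols, 13 were 2-fold or more in H3K9ac, 6 with 13HH3-1A5 and 4 with 7G8, with a median H3K9ac log2 ratio of 2.39. Hnrpll was the lowest of them with 0.58. All 18 SR-like factors and SR protein kinases passed for H3K9ac, 11 passed for 13HH3-1A5 and 9 for 7G8, and their median was 2.68, from U2af2, the large subunit of the factor that binds the polypyrimidine tract, with 3.78 to Acin1 with 1.62. All 38 core snRNP and spliceosome subunits passed for H3K9ac, but 10 for 13HH3-1A5 and 13 for 7G8, and their median was 2.33, from Snrnp70, a protein of the U1 particle, with 3.70 to Lsm7 with 1.24.

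Of 18 tissue-restricted splicing regulators, 8 passed for H3K9ac (44.4%, near the 50.6% of all genes) and none for 13HH3-1A5 (all genes 9.56%) or 7G8 (all genes 9.33%). Their median was 0.80 for H3K9ac and 0.03 for 13HH3-1A5, near those of all genes. Esrp1, an epithelial regulator, was the highest with 2.22, and Rbfox1, a regulator of neurons and muscle, the lowest with -0.25. The hnRNP and SR genes had the highest median of the lists of splicing genes in each library. The share of members at 2-fold for 13HH3-1A5 was 71.4%, against 42.9% in the hnRNP relatives, 61.1% in the SR-like factors and 26.3% in the core subunits.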

How the data were processed

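Reads of 36 bases were aligned by the authors with ELAND to mm9, allowing 1 mismatch. The deposited files list, per the file headers and values, where mapped reads lie and on which strand, with no normalization. Their score column was not used. Positions were checked against the genome sequence (NCBIM37), and only the input library had a tag that ran past a chromosome end. In the 13HH3-1A5 library 3.30% of tags repeat a position and strand, and 1 tag per position and strand was kept. The H3K9ac, 7G8 and input files hold no such repeats, so the files differ in this respect. Whether repeats had been removed from them before deposit was not tested. Tags were shifted 100 bp from their 5′ end into the fragment and, for chromosomes 1 to 19 and both sex chromosomes, scaled to 10000000 per library, with a pseudocount of 1 before log2 ratios. The TSS was the start shared within 100 bp by most protein-coding transcripts of the gene. Called means 2-fold or more over input, with no test. Exact 95% intervals of ratios are binomial, and those of medians are from order statistics over members.

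Genes named with values in every library are Hnrnpa2b1, the 4 highest and 4 lowest in H3K9ac, the 3 highest and 3 lowest differences between 13HH3-1A5 and H3K9ac, the 3 highest inner bodies, the 2 widest and 2 narrowest and the highest of each family. Other lists are named by their highest and lowest gene. Some items under this rule are not reported here. The members, lists and rules were chosen with earlier results of these data known; annotated starts, maxima inside genes and divergent neighbours were looked at after their values were seen. Counting and intervals were tested on simulated data. The software was pandas 2.3.3, scipy 1.17.1, numpy 2.4.6 and, for plots, matplotlib 3.10.9, under Python 3.11.15. Alternatives were tried for the window, threshold, scaling, pseudocount, repeats, choice of TSS and members. Expression data were not used here.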

Additional observations from a re-analysis of the deposited data

How the results depend on the processing

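Of 125 alternative values, 113 stayed within the limits set for a change, 12 moved and 0 reversed. With a window of 1 kb either side of the TSS the median of 13HH3-1A5 was 2.09 and its difference from H3K9ac was -1.59. With input scaled by the median ratio of 10 kb bins, which changed the scaled input by -0.35 on the log2 scale and so raised the H3K9ac ratio of every gene by nearly as much, the difference was -1.95 and the H3K9ac median of the inner bodies 1.97. With a pseudocount of 5, 27 of the 28 members passed for H3K9ac, 20 with 13HH3-1A5 and 17 with 7G8. At a 4-fold threshold, 25 members passed in H3K9ac, 5 with 13HH3-1A5 and 2 with 7G8 (all genes 20.6%, 0.406% and 0.22%), and the median H3K9ac breadth was 4150 bp. Over the whole gene body from the TSS, H3K9ac had a median of 2.19, 13HH3-1A5 of 0.73 and 7G8 of 0.48. Of the 18 members with no other TSS in the window, 18 passed for H3K9ac and 13 for 7G8; these counts are lower because fewer members were counted. The median H3K9ac log2 ratio at the TSS lay between 2.92 and 3.60 under all its alternatives. With 1 library per antibody, variation between cultures and immunoprecipitations could not be measured. At input counts of 18 to 86 tags per window, H3K14ac of single members such as Srsf12 and Srsf9 could not be told apart from input. No paired analysis was possible because each group has 1 sample.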
